A study of Mus musculus with 16 samples.

Results

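The interleukin-6 (IL-6) family genes and their feedback inhibitor were followed in mouse lungs given crystalline silica (CS), a mineral dust that inflames and scars the lung. The 9 genes were the cytokines Il6, Il11, Lif and Osm, the receptor chains Il6ra, Il6st and Osmr, the transcription factor Stat3 and the signalling inhibitor Socs3. They were chosen by name as a pathway, out of 19938 genes measured. Where several probe sets carried a gene's symbol alone, the brightest on average across the 16 arrays stood for it, and all 9 genes had such a probe set.

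Total lung RNA of C57BL/6 mice, 10 to 12 weeks of age by their labels, was measured on Affymetrix whole-transcript arrays after CS, or phosphate-buffered saline (PBS) as control, was instilled into the trachea. All groups share this age label, which does not say whether it is the age at instillation or at collection. Whether day 60 mice were older than day 2 mice when collected is therefore not known. The CS groups were BLT1-/-KRasLA1 lungs (day 60), BLT1+/+KRasLA1 lungs (day 60), BLT1-/- lungs (day 2) and BLT1+/+ lungs (day 2). The 4 PBS groups had the same genotypes and days. BLT1, absent in BLT1-/- mice by their labels, is a receptor for leukotriene B4, a lipid that attracts neutrophils. KRasLA1 is a latent oncogenic allele that spontaneous recombination switches on in scattered cells, so that lung tumors form. Both day 60 genotypes carry KRasLA1, in CS and PBS mice alike, and neither day 2 genotype does, so day and KRasLA1 cannot be told apart. Each CS group held 3 lungs, and each PBS group was 1 array of RNA pooled from 3 mice, with no replicate. The labels call the CS lungs biological replicates without numbering the animals, and the p-values here therefore cover the spread between these samples alone, part of which may be technical. Levels are log2 expression values as deposited, and differences are in log2 units, where 1 unit is a doubling. A gene is said to have changed where limma's adjusted p, taken over all 19938 genes, was under 0.05.

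IL-6 family cytokines share gp130, the receptor chain encoded by Il6st. IL-6 first binds its own receptor chain (Il6ra), either on the cell or as a shed soluble form, whereas oncostatin M (Osm) signals through gp130 paired with the chain encoded by Osmr. Engaged gp130 activates JAK kinases, which phosphorylate STAT3, and STAT3 induces its own feedback inhibitor SOCS3, which binds gp130 and the JAK kinases. In the lung this pathway is known for acute phase responses, epithelial repair, fibrosis and tumor growth.

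The upstream sequences of Il6 and Socs3 are shown because these 2 genes had the largest silica responses among the 9 at each day, averaged over the BLT1 genotypes. RefSeq promoter sequences of mouse build GRCm38.p6 were matched for 8 of the 9 genes, with 9 entries. Each sequence holds the 250 bases before the annotated start, 5′ to 3′ on the gene's strand, with motif matches in capitals. The Il6 sequence lies at chr5:30012864-30013113 on the plus strand and the Socs3 sequence at chr11:117969367-117969616 on the minus strand.
Il6: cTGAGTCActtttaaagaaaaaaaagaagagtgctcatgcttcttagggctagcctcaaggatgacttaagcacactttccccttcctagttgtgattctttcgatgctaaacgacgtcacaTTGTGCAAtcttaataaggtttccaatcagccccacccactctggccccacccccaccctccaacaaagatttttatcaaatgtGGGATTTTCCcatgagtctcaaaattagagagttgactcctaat
Socs3: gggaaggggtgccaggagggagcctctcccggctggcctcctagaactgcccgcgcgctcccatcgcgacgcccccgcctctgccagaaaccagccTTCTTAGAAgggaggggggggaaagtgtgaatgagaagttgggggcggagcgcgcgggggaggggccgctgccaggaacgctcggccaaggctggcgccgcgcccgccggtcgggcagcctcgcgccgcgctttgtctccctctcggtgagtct
Motifs were searched on both strands of the 250 bases as the letters TTCNNNGAA for STAT, GGG, any 3 bases and TTCC for NF-kB, TGANTCA for AP-1 and TTGCNNAA for C/EBP. The Il6 sequence held TGAGTCA (AP-1) 249 to 243 bases upstream, TTGTGCAA 128 to 121 bases upstream, which is the C/EBP motif on the opposite strand, and GGGATTTTCC (NF-kB) 44 to 35 bases upstream. The Socs3 sequence held TTCTTAGAA (STAT) 154 to 146 bases upstream. No 2 of these matches overlapped. Of 32851 promoter windows of this length, 7.02% held the STAT letters, 4.65% NF-kB, 6.75% AP-1 and 9.56% C/EBP. Among the other 6 matched genes, Il11 and Lif each held 1 AP-1 match. A match describes letters in this window and is no evidence of binding. Osm and Lif are neighbours on chromosome 11, and Osmr lies next to Lifr, the gene of the LIF receptor chain, on chromosome 15.

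Lung epithelial markers had a summed log2 level between 16.50 and 16.63 on all 16 arrays. Ltb4r1, which encodes BLT1, read 7.22 to 7.63 on all arrays. In day 2 CS lungs it was 7.35, 7.42 and 7.43 in BLT1-/- and 7.56, 7.59 and 7.63 in BLT1+/+ mice, but the day 2 pools ran the other way (7.56 in BLT1-/- and 7.40 in BLT1+/+ mice), and the genotypes overlapped at day 60. Its probes may lie outside the deletion, and it checks no label. One CS lung stood apart: BLT1+/+KRasLA1 CS replicate 2 had a log2 level of 10.09 for the Y-linked gene Eif2s3y and 6.61 for Xist, a pattern shared in part by the 2 day 60 PBS pools (Eif2s3y 9.04 in the BLT1-/-KRasLA1 pool and 9.68 in the BLT1+/+KRasLA1 pool). Xist was 12.16 in the BLT1-/-KRasLA1 pool and 12.32 in the BLT1+/+KRasLA1 pool, far above that lung. The other 13 arrays had Eif2s3y at 4.27 to 4.74. The day 60 responses of the 9 genes, the list counts and the correlation of Il6 with Socs3 are given with and without this lung. With both day 60 pools high and 5 of the 6 day 60 CS lungs low in Eif2s3y, the comparison of CS with PBS at day 60 is mixed with this Y-linked difference, completely so when that lung is left out.

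**Figure D1:**
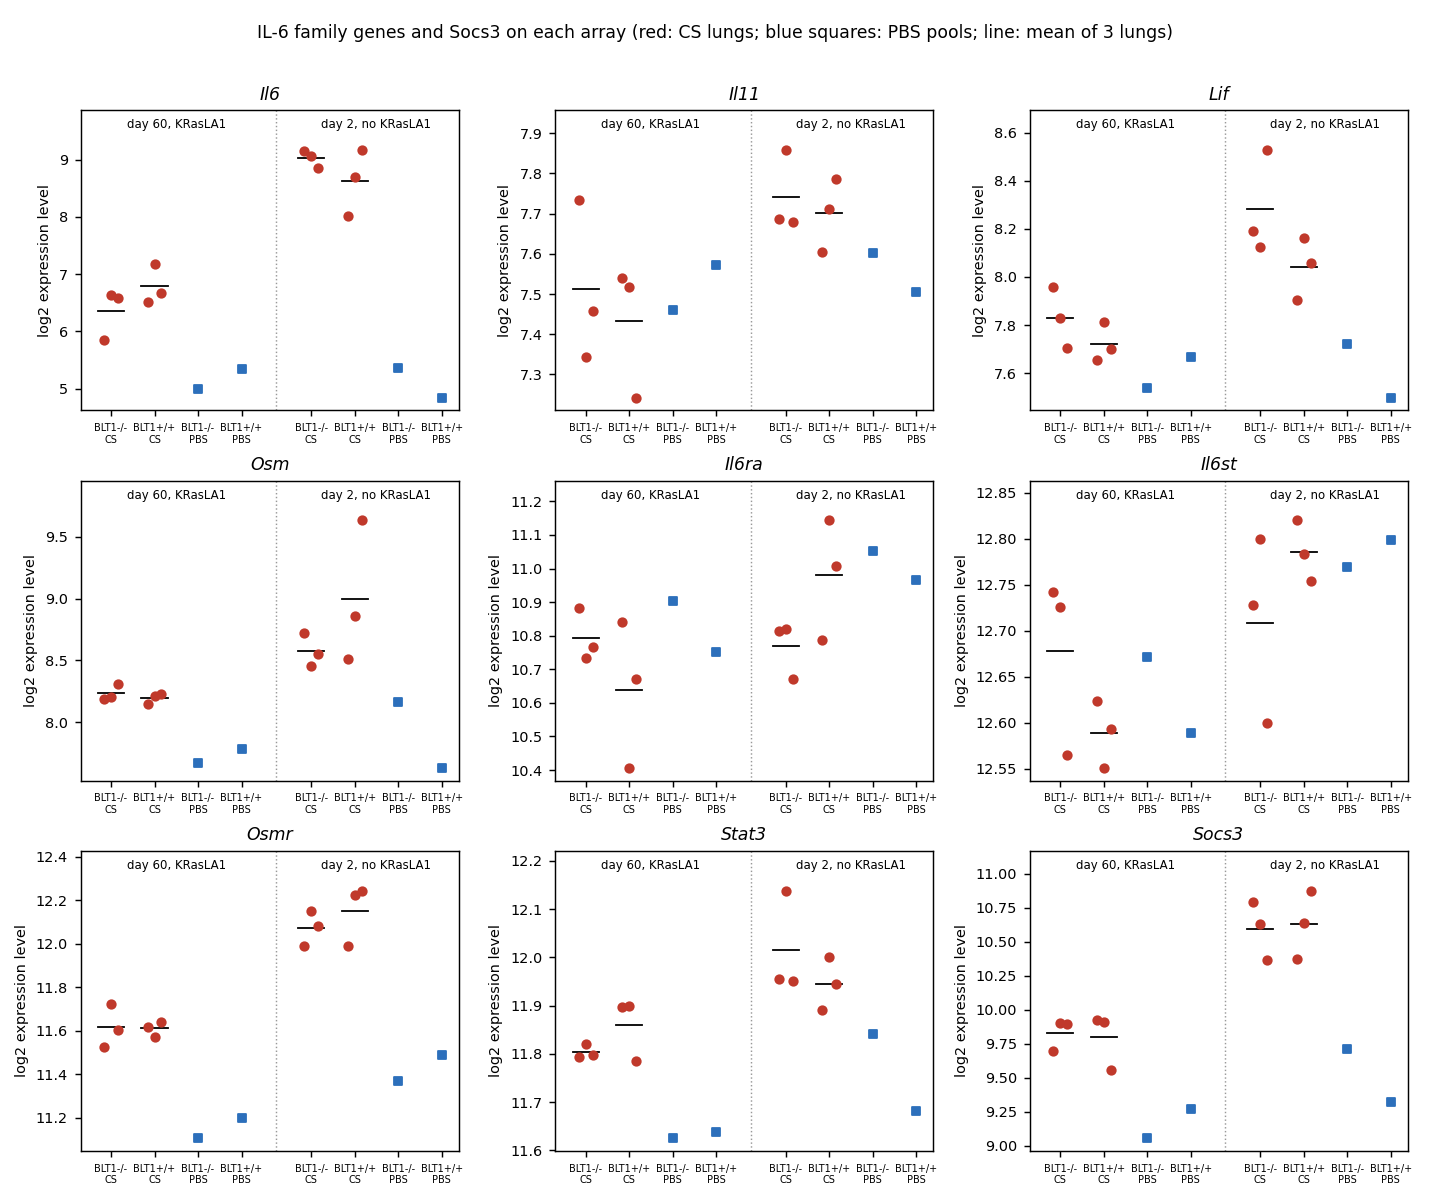
Log2 expression level (y axis, a separate scale for each gene) of the 9 genes on each array, by group, with day 60 KRasLA1 groups left and day 2 groups right in each panel. Red points are CS lungs with a line at the mean of 3, and blue squares are single PBS pools; for Il6, CS lungs at day 2 sit at 8.01 to 9.17, against PBS pools at 5.36 and 4.84.

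At day 2, silica lungs had higher levels of 3 of the 4 cytokines, of 1 of the 3 receptor chains, of Stat3 and of Socs3. Averaged over the BLT1 genotypes, 6 of the 9 genes rose, where 8.03% of all genes did. The median difference was 0.55 over the 9 genes and -0.02 over all genes. All 6 CS lungs lay above both PBS pools for 7 of the 9 genes, a pattern shown by 12.1% of all genes.

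Il6, the founding cytokine of the family, had the largest response. Its level was 9.15, 9.07 and 8.85 in the BLT1-/- CS lungs and 8.01, 8.70 and 9.17 in the BLT1+/+ CS lungs, against 5.36 in the BLT1-/- PBS pool and 4.84 in the BLT1+/+ PBS pool. The groups did not overlap, and the lowest silica lung stood over 2 log2 units above the higher pool. The mean response was 3.73 ± 0.27 (SE, 6 CS lungs against 2 pools), a 13.3-fold rise with a 95% interval of 8.87 to 19.8 (limma, adjusted p = 1.01e-05). Il6 was dim outside the day 2 CS lungs: its other 6 group means were 4.84 to 6.79, where the median probe set of an array read 8.25 to 8.34. In this range background signal can make the measured change smaller than the true one, so the fold may be compressed.

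Osm, a cytokine made mainly by activated leukocytes, read 8.72, 8.46 and 8.55 in BLT1-/- CS lungs and 8.51, 8.86 and 9.63 in BLT1+/+ CS lungs, against 8.16 in the BLT1-/- PBS pool and 7.63 in the BLT1+/+ PBS pool. The highest value was BLT1+/+ CS replicate 3, and the pools differed from each other by more than the BLT1-/- CS lungs did among themselves. The mean response was 0.89 ± 0.20, or 1.86-fold (limma, adjusted p = 0.0108). It was 1.37 (adjusted p = 0.125) without the BLT1-/- pool and 0.41 (adjusted p = 0.466) without the BLT1+/+ pool, so the size depends on which pool serves as control.

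Lif, leukemia inhibitory factor, which signals through gp130 and Lifr, was 8.19, 8.13 and 8.53 in BLT1-/- CS lungs and 7.91, 8.16 and 8.06 in BLT1+/+ CS lungs, against 7.72 and 7.50 in the BLT1-/- and BLT1+/+ PBS pools. It rose by 0.55 ± 0.12, or 1.47-fold (limma, adjusted p = 0.00748, with 0.246 when the BLT1-/- pool was left out and 0.116 when the BLT1+/+ pool was). Il11, a fibroblast-acting member of the family, averaged 7.74 ± 0.10 in BLT1-/- CS lungs and 7.70 ± 0.09 in BLT1+/+ CS lungs (SD, n = 3 each), against 7.60 and 7.51 in the pools of those genotypes. All 6 CS lungs were above both pools, but the difference of 0.17 (95% interval -0.08 to 0.42) did not pass the threshold (limma, adjusted p = 0.428). Both genes are dim: their highest group means, 8.28 for Lif and 7.74 for Il11, lay under a filter of 8.3 used in an alternative analysis. On single arrays Lif passed that level in BLT1-/- CS replicate 3, at 8.53. The other 7 genes passed it, Il6 and Osm through their day 2 CS groups alone, and the limit given for Il6 applies to these genes too.

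Among the receptor chains, Osmr rose while gp130 and the IL-6 receptor chain did not pass the threshold. Osmr read 11.99, 12.15 and 12.08 in BLT1-/- CS lungs and 11.99, 12.22 and 12.24 in BLT1+/+ CS lungs, against 11.37 in the BLT1-/- PBS pool and 11.49 in the BLT1+/+ PBS pool. It rose 1.61-fold (0.68 ± 0.08, limma, adjusted p = 0.000224), with all 6 silica lungs above both pools. Il6st was 12.60 to 12.80 in BLT1-/- CS lungs and 12.75 to 12.82 in BLT1+/+ CS lungs, against 12.77 and 12.80 in the 2 pools, which overlap. Its difference of -0.04 had a 95% interval of -0.17 to 0.10, and that of Il6ra, -0.14, one of -0.37 to 0.10. Il6ra was 10.67 to 10.82 in BLT1-/- CS lungs and 10.79 to 11.14 in BLT1+/+ CS lungs, against 11.05 and 10.97 in the BLT1-/- and BLT1+/+ pools.

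Downstream of the receptors, Socs3 and Stat3 both rose. Socs3 was 10.79, 10.63 and 10.36 in BLT1-/- CS lungs and 10.38, 10.64 and 10.88 in BLT1+/+ CS lungs, against 9.71 in the BLT1-/- PBS pool and 9.32 in the BLT1+/+ PBS pool. The groups did not overlap, and the mean response was 1.10 ± 0.14, or 2.14-fold (limma, adjusted p = 0.000471). Without the BLT1+/+ pool it was 0.89 and did not pass the threshold. Stat3 was 11.96, 12.14 and 11.95 in BLT1-/- CS lungs and 11.89, 12.00 and 11.95 in BLT1+/+ CS lungs, against 11.84 and 11.68 in the BLT1-/- and BLT1+/+ pools. Its rise of 0.22 ± 0.06, or 1.16-fold, passed the threshold (limma, adjusted p = 0.0346) but lost it in 8 of 17 alternative analyses, with adjusted p between 0.0171 and 0.358; these included leaving out either pool, BLT1-/- CS replicate 2 (0.0528), BLT1+/+ CS replicate 2 (0.0667) or BLT1+/+ CS replicate 3 (0.0554).

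A second Socs3 probe set, dimmer and not used for the gene, gave a day 2 response of 0.53 ± 0.10 (limma over all probe sets, adjusted p = 0.00431). Both probe sets therefore rose at day 2, by different amounts.

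Within each BLT1 genotype at day 2, the comparison rests on 3 CS lungs and 1 pool. In BLT1-/- lungs 3 of the 9 genes rose (5.19% of all genes rose): Il6 by 3.67 ± 0.38 (adjusted p = 0.000595), Osmr by 0.70 ± 0.11 (adjusted p = 0.00471) and Socs3 by 0.89 ± 0.20 (limma, adjusted p = 0.0206). In BLT1+/+ lungs 4 of the 9 rose (0.853% of all genes rose): Il6 by 3.79 ± 0.38 (adjusted p = 0.000851), Osm by 1.37 ± 0.28 (adjusted p = 0.0375), Osmr by 0.67 ± 0.11 (adjusted p = 0.0111) and Socs3 by 1.31 ± 0.20 (limma, adjusted p = 0.00812). With only the 8 day 2 arrays in the fit, 2 of these 4 calls were left, and all genes called in BLT1+/+ lungs went from 232 to 93. In that fit Socs3 in BLT1-/- lungs was no longer called (limma, adjusted p = 0.0539). Without BLT1+/+ CS replicate 2 the call of Osm was lost (limma, adjusted p = 0.0761). Lif differed by 0.56 in BLT1-/- lungs (limma, adjusted p = 0.0571, and 0.0474 with the replicate number as a block) and by 0.55 in BLT1+/+ lungs (adjusted p = 0.141).

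At day 60, in KRasLA1 mice, Il6, Osmr and Socs3 were higher after silica. They were 3 of the 9 genes, where 3.35% of all genes rose. With high Eif2s3y as a term in the fit, a setting chosen after the data were seen, Il6 was the 1 gene still called (1.90 ± 0.41, adjusted p = 0.0398), while Osmr stood at 0.41 (adjusted p = 0.145) and Socs3 at 0.80 (limma, adjusted p = 0.113). That term rests on 1 CS lung, BLT1+/+KRasLA1 CS replicate 2, which was above its own pool, also high in Eif2s3y, by 1.84 for Il6, 0.37 for Osmr and 0.64 for Socs3. The term treats that lung and both pools as alike, but Xist was far lower in the lung, so it is no matched adjustment. The median difference was 0.20 over the 9 genes and -0.03 over all genes. All 6 CS lungs lay above both pools for Il6, Osm, Osmr, Stat3 and Socs3, 5 of the 9, a pattern shown by 9.66% of all genes.

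Il6 read 5.86, 6.64 and 6.58 in BLT1-/-KRasLA1 CS lungs and 6.51, 7.18 and 6.67 in BLT1+/+KRasLA1 CS lungs, against 5.0 in the BLT1-/-KRasLA1 PBS pool and 5.34 in the BLT1+/+KRasLA1 PBS pool. The lowest silica lung was about 0.5 units above the higher pool. The rise was 1.41 ± 0.27, or 2.65-fold (limma, adjusted p = 0.00907). The rise was 1.45 without the BLT1-/-KRasLA1 pool and 1.36 without the BLT1+/+KRasLA1 pool. Neither value passed the threshold in those smaller additive fits.

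Osmr was 11.53, 11.72 and 11.60 in BLT1-/-KRasLA1 CS lungs and 11.62, 11.57 and 11.64 in BLT1+/+KRasLA1 CS lungs, against 11.11 and 11.20 in the BLT1-/-KRasLA1 and BLT1+/+KRasLA1 pools. The 6 lungs lay close together and the rise was 0.46 ± 0.08, or 1.38-fold (limma, adjusted p = 0.00344). Without the BLT1-/-KRasLA1 pool the rise was 0.41 and did not pass the threshold. Socs3 was 9.69, 9.90 and 9.90 in BLT1-/-KRasLA1 CS lungs and 9.92, 9.91 and 9.55 in BLT1+/+KRasLA1 CS lungs, against 9.05 and 9.27 in the pools of those genotypes. Its rise was 0.65 ± 0.14, or 1.57-fold (limma, adjusted p = 0.0172). The call was lost without the BLT1-/-KRasLA1 pool (a rise of 0.53) and without the BLT1+/+KRasLA1 pool (a rise of 0.78). The second Socs3 probe set gave 0.11 (adjusted p = 0.746), and with the probe sets averaged Socs3 differed by 0.38 (limma, adjusted p = 0.0779), so the day 60 call holds for 1 of its 2 probe sets.

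The other genes did not pass the threshold at day 60. Osm read 8.18 to 8.31 in BLT1-/-KRasLA1 CS lungs and 8.15 to 8.23 in BLT1+/+KRasLA1 CS lungs, against 7.67 and 7.78 in the pools of those genotypes, a difference of 0.49 ± 0.20 (limma, adjusted p = 0.262). Stat3, at 11.79 to 11.82 and 11.79 to 11.90 in those CS groups against 11.62 and 11.64 in those pools, differed by 0.20 ± 0.06 (limma, adjusted p = 0.105). For both genes the groups did not overlap. Lif differed by 0.17 (95% interval -0.08 to 0.42), Il6ra by -0.11 (-0.34 to 0.12), Il6st by 0.00 (-0.13 to 0.14) and Il11 by -0.04 (-0.29 to 0.21). Without BLT1+/+KRasLA1 CS replicate 2, the lung that stood apart in Eif2s3y, the same 3 genes passed: Il6 at 1.31 (adjusted p = 0.0172), Osmr at 0.47 (adjusted p = 0.00661) and Socs3 at 0.62 (limma, adjusted p = 0.0363).

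Taken genotype by genotype at day 60, 1 of the 9 genes rose in BLT1-/-KRasLA1 lungs (1.1% of all genes rose), Osmr by 0.51 ± 0.11 (limma, adjusted p = 0.0359). Without BLT1-/-KRasLA1 CS replicate 2 its adjusted p was 0.111, and without replicate 3 it was 0.107. In BLT1+/+KRasLA1 lungs limma called 0 of the 9 (0.687% of all genes rose), and 4 had an unadjusted p under 0.05. There Il6 differed by 1.45 (adjusted p = 0.125), Osmr by 0.41 (adjusted p = 0.123), Socs3 by 0.53 (adjusted p = 0.351) and Stat3 by 0.22 (adjusted p = 0.389). Without replicate 2 of that group these 4 differences were 1.25, 0.43, 0.47 and 0.20 in the same order, with adjusted p between 0.211 and 0.716 (limma).

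**Figure D2:**
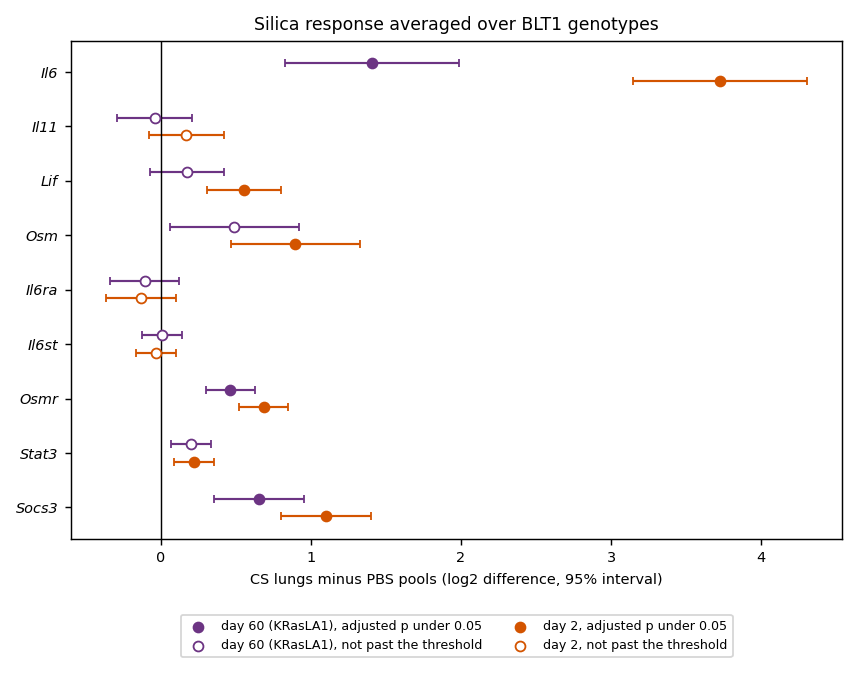
Silica response (x axis, CS lungs minus PBS pools, log2 difference averaged over the BLT1 genotypes) of the 9 genes, with day 60 in purple above day 2 in orange and 95% intervals from limma as bars. Filled points passed an adjusted p of 0.05; Il6 stands at 1.41 at day 60 and 3.73 at day 2, while the intervals of Il6ra, Il6st and Il11 span 0 at both days.

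The order of the 8 group means was alike for Il6, Lif, Osm, Osmr and Socs3, 5 of the 9 genes: the CS groups of day 2 were highest, the CS groups of day 60 came next and the 4 PBS pools were lowest. At each day the CS lungs of the BLT1 genotypes, neighbours in this order, overlapped for each of the 5 genes. The pools are single arrays of both days and genotypes, and no order is read among them. Single arrays overlapped at the step from day 60 CS lungs to the highest pool, that of BLT1-/- mice at day 2, for Lif (lowest lung 7.65, pool 7.72), Osm (8.15 and 8.16) and Socs3 (9.55 and 9.71). CS lungs of the 2 days overlapped for Lif (highest day 60 lung 7.96, lowest day 2 lung 7.91). Stat3, Il11, Il6ra and Il6st did not keep this order. The share of all genes that keep it was not counted, so whether 5 of 9 is unusual is not known.

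The responses at the 2 days were compared directly. Of the 9 genes, the response of Il6 alone differed between day 60 and day 2 (1 of 9 lower, where 0.657% of all genes were lower). It was 1.41 at day 60 and 3.73 at day 2, a difference of -2.32 ± 0.38 (limma, adjusted p = 0.00583), so the day 60 response was 0.20 times the day 2 response on the linear scale. This call was kept in 20 of 21 alternatives and lost with high Eif2s3y as a term (-1.83, adjusted p = 0.134). Without BLT1+/+KRasLA1 CS replicate 2 the difference was -2.42 (adjusted p = 0.00626).

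For the other responders the difference did not pass: -0.45 ± 0.20 for Socs3 (adjusted p = 0.326), -0.41 for Osm (0.619), -0.38 for Lif (0.301), -0.22 for Osmr (0.382) and -0.02 for Stat3 (limma, adjusted p = 0.975). In level, all 6 day 60 CS lungs lay below all 6 day 2 CS lungs for Il6, Osm, Osmr and Socs3, 4 of the 9 genes, a pattern shown by 6.93% of all genes. The PBS pools differed between the days in 0 of the 9 genes by limma (0.396% of all genes), with 1 of the 9 at an unadjusted p under 0.05. That gene was Osmr, 0.28 units lower in the day 60 pools (difference -0.28 ± 0.09, adjusted p = 0.261). Il6 differed by 0.07 and Socs3 by -0.35 (limma, adjusted p = 0.492) between the day 60 and the day 2 pools.

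The comparison of BLT1-/- with BLT1+/+ lungs after silica asked whether the receptor's loss altered these genes. At day 2, limma called 0 of the 9 genes (0.0201% of all genes), and 0 of the 9 had an unadjusted p under 0.05. At day 60 it again called 0 of the 9 (0.0401% of all genes), with 0 at an unadjusted p under 0.05. For every one of the 9 genes the BLT1-/- and BLT1+/+ CS lungs overlapped at both days. The share of all genes that overlapped was not counted, so no result particular to the 9 is read from it.

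The intervals show what these 3 lungs per group leave possible. For Il6 the BLT1-/- minus BLT1+/+ difference stood at -0.43 at day 60 (95% interval -1.01 to 0.15, and -0.23 without BLT1+/+KRasLA1 CS replicate 2) and at 0.40 at day 2 (-0.18 to 0.97). At day 2 Osm stood at -0.42 (-0.85 to 0.01) and Lif at 0.24 (-0.01 to 0.49). The narrowest intervals at day 2 were those of Il6st, at -0.08 (-0.21 to 0.06), and Stat3, at 0.07 (-0.06 to 0.20).

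The silica response itself did not differ detectably between the BLT1 genotypes. By limma, 0 of the 9 genes and 0% of all genes passed at either day, with 1 of the 9 at an unadjusted p under 0.05 at day 2 and 0 at day 60. The 1 gene was Osm, whose response was 0.41 in BLT1-/- lungs and 1.37 in BLT1+/+ lungs (difference -0.96 ± 0.40, unadjusted p = 0.0311, adjusted p = 0.820). Both parts of the contrast entered it: the CS lungs averaged 8.58 ± 0.13 in BLT1-/- and 9.0 ± 0.58 in BLT1+/+ mice (SD, n = 3 each), and the unreplicated PBS pools read 8.16 in BLT1-/- and 7.63 in BLT1+/+ mice. For Socs3 the responses of 0.89 in BLT1-/- and 1.31 in BLT1+/+ lungs differed by -0.42 ± 0.28 (limma, adjusted p = 0.820).

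**Figure D3:**
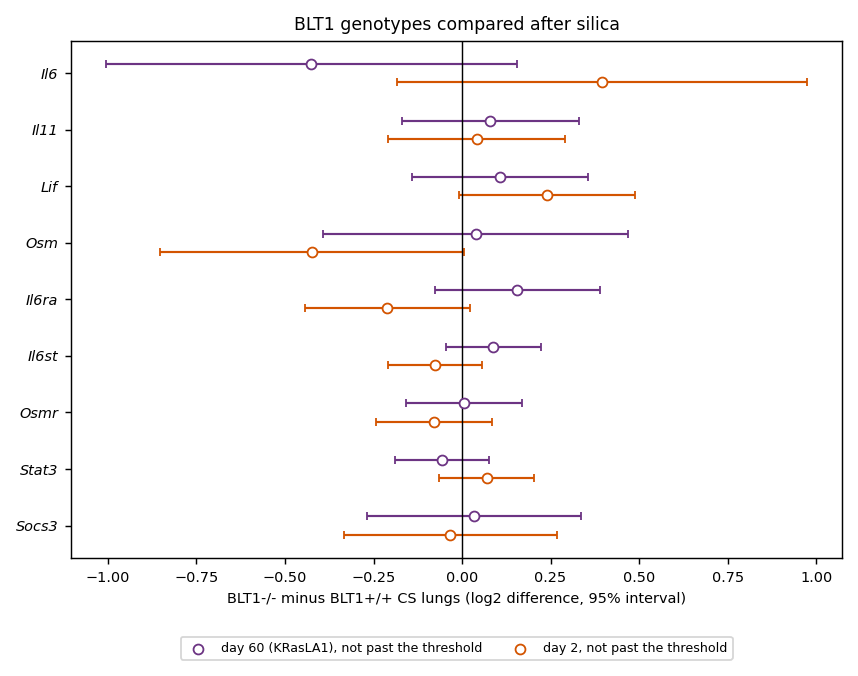
Difference between BLT1-/- and BLT1+/+ CS lungs (x axis, log2, 3 lungs per group) for the 9 genes, with day 60 in purple above day 2 in orange and 95% intervals from limma as bars. Open points mark that no gene passed an adjusted p of 0.05, and every interval includes 0, with those of Osm (-0.85 to 0.01) and Lif (-0.01 to 0.49) at day 2 just reaching it.

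The rest of the pathway was read from gene lists chosen by role. For comparison, 8.03% of all genes rose in the mean response at day 2 and 3.35% at day 60. In either direction, 2473 of the 19938 genes changed at day 2 and 802 at day 60. The other family ligands (6 measured, of which limma called 0 at either day, with 1 at an unadjusted p under 0.05 at day 60 and 0 at day 2) had a median difference of -0.05 at day 60 and -0.10 at day 2. Of the other receptor chains and the proteases that shed Il6ra, 2 of 6 fell at day 2, namely Il27ra, the IL-27 receptor chain (-0.47 ± 0.11, adjusted p = 0.0119), and Cntfr, the ciliary neurotrophic factor receptor (-0.35 ± 0.10, limma, adjusted p = 0.0419). At day 60, 2 rose and 1 fell: Adam17, the main sheddase of the IL-6 receptor, rose by 0.39 ± 0.08, Il27ra rose by 0.43 ± 0.11 and Cntfr changed by -0.46 ± 0.10 (limma, adjusted p = 0.0114, 0.0349 and 0.0238 in that order). Without BLT1+/+KRasLA1 CS replicate 2, Adam17 alone passed at day 60. The Il27ra response differed between the days (day 60 minus day 2, 0.90 ± 0.15, limma, adjusted p = 0.00627).

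Among 9 measured JAK kinases, STAT factors and phosphatases, Ptpn2, a phosphatase that acts on JAKs and STATs, rose at day 2 by 0.69 and Jak2, a gp130-associated kinase, by 0.22, while Stat5b changed by -0.31 (limma, adjusted p = 0.00509, 0.0221 and 0.0126 in that order). At day 60, 2 of the 9 rose, Jak2 by 0.25 (adjusted p = 0.0212) and Ptpn6 (SHP-1) by 0.40 (limma, adjusted p = 0.0251), and 0 fell. Jak2 alone passed without BLT1+/+KRasLA1 CS replicate 2. Of 8 other SOCS and PIAS inhibitors, Cish alone rose at day 2, by 0.26 (limma, adjusted p = 0.0328), and by limma 0 passed at day 60, with 3 at an unadjusted p under 0.05.

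Many genes known as STAT3 targets rose at day 2. Of 17 listed, 11 rose and 0 fell, with a median of 0.40 (-0.02 over all genes). The leading ones were Timp1, a metalloproteinase inhibitor (3.36 ± 0.24, adjusted p = 1.01e-05), the growth regulator Myc (0.99 ± 0.12, adjusted p = 0.000367), the NF-kB cofactor Bcl3 (0.86 ± 0.12, adjusted p = 0.000698) and the adhesion molecule Icam1 (0.46 ± 0.06, limma, adjusted p = 0.000781). At day 60, 3 of the 17 rose and 0 fell, with a median of 0.16: Pim1, a survival kinase, by 1.05, Bcl3 by 0.96 and Timp1 by 1.79 (limma, adjusted p = 0.000202, 0.000517 and 0.00106 in that order). The response differed between the days in 2 of the 17, both lower at day 60: Timp1 (-1.57 ± 0.34, adjusted p = 0.0296) and Myc (-0.70 ± 0.17, limma, adjusted p = 0.0494). The same 3 and the same 2 genes passed without BLT1+/+KRasLA1 CS replicate 2. Fewer of these targets passed at either day when a PBS pool was left out. Those additive fits, with a single PBS array as control, called far fewer of all genes too, so the drop is not particular to this list.

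Of 16 IL-6 acute phase targets, 7 rose and 0 fell at day 2 (median 0.61). Saa3, a serum amyloid A made outside the liver, rose by 4.91 ± 0.22, Lcn2 (lipocalin-2) by 1.07 ± 0.05, Lrg1, a leucine-rich glycoprotein, by 1.16 ± 0.12 and Orm1 (orosomucoid) by 2.97 ± 0.31 (limma, adjusted p = 1.11e-07, 1.22e-07, 0.000145 and 0.000163 in that order). At day 60, 6 of the 16 rose and 1 fell (median 0.22), with Saa3 at 4.68, Lcn2 at 1.02, Itih4, an inter-alpha-trypsin inhibitor chain, at 1.26 and Lrg1 at 1.13 (limma, adjusted p = 2.07e-07, 2.26e-07, 0.000163 and 0.000176 in that order). The 1 that fell was Hamp, the iron hormone hepcidin (-0.79 ± 0.19, adjusted p = 0.0339), named here after its value was seen. Without BLT1+/+KRasLA1 CS replicate 2, 6 rose and 0 fell. By limma 0 of the 16 had a response that differed between the days, with 2 at an unadjusted p under 0.05. These lists share lungs, arrays and PBS pools with the 9 genes and are not independent of them.

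**Figure D4:**
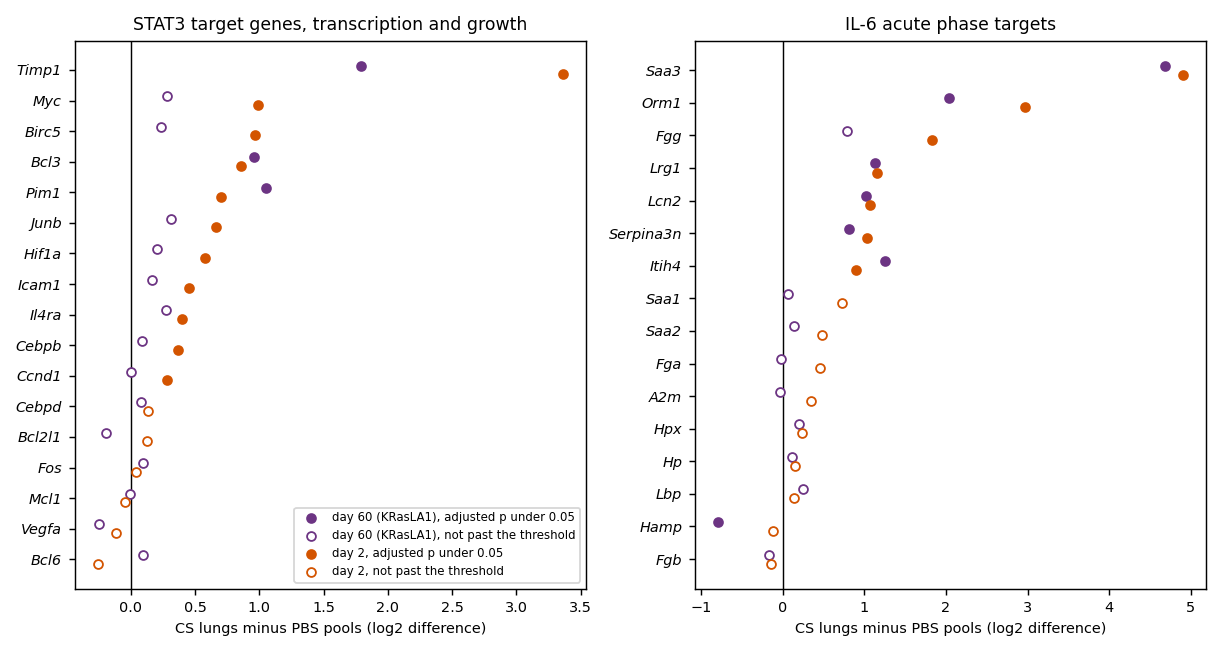
Silica response (x axis, CS lungs minus PBS pools, log2 difference averaged over the BLT1 genotypes) of 17 STAT3 targets (left) and 16 IL-6 acute phase targets (right), ordered by the day 2 value, with day 60 in purple and day 2 in orange. Filled points passed an adjusted p of 0.05: 3 STAT3 targets rose at day 60 and 11 at day 2, and 6 acute phase genes rose at day 60 and 7 at day 2.

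Markers of immune and other lung cells were read in the same comparisons, and the lists moved in different directions. Their counts are to be read beside those of all 19938 genes, of which 2473 changed in either direction at day 2 and 802 at day 60. Those that rose were 8.03% of all genes at day 2 and 3.35% at day 60. In bulk lung, fewer cells of a type and less RNA per cell cannot be told apart. At day 2, 3 of 10 monocyte and macrophage markers rose (Cd14, Marco and Cd68) and 1 fell (Ccr2, named after its value was seen), and their summed level was 14.86 to 14.90 in BLT1-/- CS lungs and 14.98 to 15.09 in BLT1+/+ CS lungs, against 14.81 and 14.93 in the BLT1-/- and BLT1+/+ pools. At day 60, 6 of the 10 rose and the sum was 15.23 to 15.29 in BLT1-/-KRasLA1 CS lungs and 15.15 to 15.37 in BLT1+/+KRasLA1 CS lungs, against 14.92 and 14.96 in those pools.

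Of 9 neutrophil markers, limma called 0 at day 2, with 2 at an unadjusted p under 0.05, and 2 rose at day 60. Their sum at day 2 was 13.77 to 14.32 in BLT1-/- CS lungs and 13.78 to 14.63 in BLT1+/+ CS lungs, against 14.36 and 13.84 in the 2 pools, which overlap with the CS lungs. At day 60 it was 12.43 to 13.31 in BLT1-/-KRasLA1 CS lungs and 12.33 to 13.46 in BLT1+/+KRasLA1 CS lungs, against 11.65 and 12.17 in the pools, and 5 of the 9 markers fell in the day 60 pools relative to the day 2 pools. T cell markers fell at day 2 (4 of 5) and rose at day 60 (3 of 5), B cell markers fell at day 2 (3 of 3), and 2 of 5 heart muscle markers fell at day 2. Of 6 endothelial markers 1 fell at day 2, and 3 of 4 smooth muscle markers fell at day 60. Of 7 fibroblast markers, 3 rose and 2 fell at day 2, and 3 rose and 1 fell at day 60. Without BLT1+/+KRasLA1 CS replicate 2, the day 60 rises were 7 of 10 for monocytes and macrophages, 3 of 9 for neutrophils, 2 of 5 for T cells and 2 of 7 for fibroblasts. The part of these cells in the responses of the 9 genes was not tested.

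The genes most like Il6 in level over the 16 arrays, by Pearson's r and as a description across arrays that share groups, were Timp1 (0.975), Cyp7b1 (0.973), an oxysterol hydroxylase, Slc39a14 (0.965), a zinc transporter, Ctps (0.965), a CTP synthase, and Snx7 (0.965), a sorting nexin. Those most like Socs3 were Susd6 (0.972), Timp1 (0.960), Serpina3n (0.956), a serine protease inhibitor, Il6 (0.955) and Myd88 (0.955), an adaptor of Toll-like and IL-1 receptors. Il6 was therefore among the 5 genes most like Socs3. Among the other genes of the family, r with Il6 was 0.940 for Osmr, 0.872 for Stat3, 0.851 for Lif and 0.848 for Osm, and it was 0.56 for Il11, 0.19 for Il6st and -0.04 for Il6ra. The arrays share groups, so these coefficients take in the differences between CS and PBS and between the days.

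With the group means taken out, Il6 and Socs3 were compared among CS lungs of the same group. Over 12 CS lungs, deviations of Il6 and Socs3 had r = 0.74 and rho = 0.69 (exact permutation within groups, two-sided, p = 0.0301 and 0.0463, and 0.120 and 0.185 after Benjamini-Hochberg adjustment over 4 cytokines). Without the 2 lungs farthest from the median of Il6, r was 0.61. At day 60 r was 0.52 (exact permutation p = 0.417). At day 2 r was 0.90 (exact permutation p = 0.0278, the smallest that 36 permutations can give, and 0.111 adjusted). The day 2 p for rho was 0.0833 by the same permutation. Over all genes, same-numbered day 2 lungs of both genotypes tended to deviate together, but Il6 and Socs3 did so in replicate 2 alone. In BLT1-/- and BLT1+/+ lungs, Il6 deviated by 0.13 and -0.62 in replicate 1 and by -0.17 and 0.54 in replicate 3. Socs3 deviated by 0.20 and -0.25, and by -0.23 and 0.25, in the same order. The lungs were also permuted as pairs at day 2, a choice made after the data were seen. The exact permutation p was then 0.0694 for r over the 12 lungs (0.278 adjusted) and 0.167 at day 2, the smallest that 6 permutations can give. Without BLT1+/+KRasLA1 CS replicate 2, r was 0.72 and rho 0.73 over 11 lungs (exact permutation p = 0.0208 and 0.0324, and 0.0833 for r after adjustment), with p = 0.0694 for r when permuted as pairs. None of the 4 relations passed the adjustment. Osm gave r = 0.63 (rho = 0.57, exact permutation p = 0.115 and 0.150, adjusted 0.230 and 0.301) and rested on 2 lungs, without which r was 0.22. Il11 gave 0.32 and Lif -0.25 (exact permutation p = 0.336 and 0.523).

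**Figure D5:**
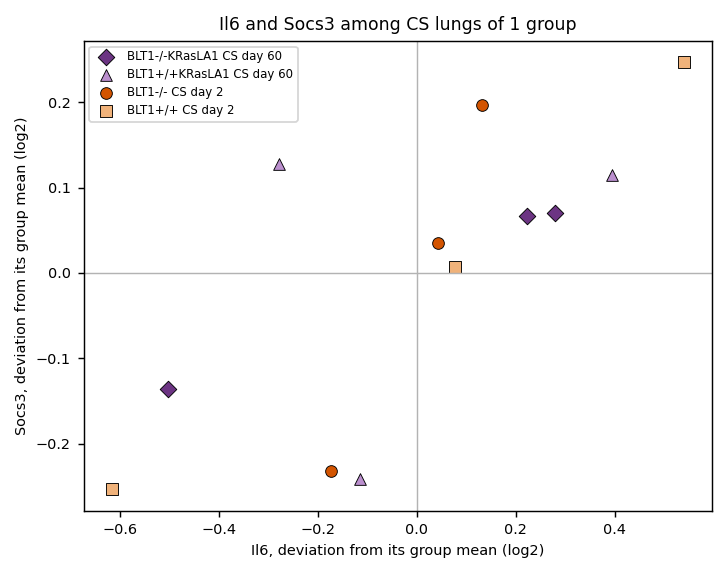
Deviation of Socs3 (y axis, log2) against that of Il6 (x axis, log2) from the mean of each CS group, 12 lungs in 4 groups of 3, with KRasLA1 day 60 lungs in purple shades and day 2 lungs in orange shades. Lungs with more Il6 than their group mean tended to have more Socs3 (r = 0.74 over all, 0.52 at day 60 and 0.90 at day 2), a relation that did not pass the adjustment over 4 cytokines.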

How the data were processed

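The authors' deposited log2 expression values of 35556 probe sets on 16 arrays were used as given. The submitters' processing notes name RMA and Partek 6.6, with no array design or order of steps. RMA gives all arrays 1 distribution (medians 8.25 to 8.34), so a change in total RNA would not be seen. No array copied another (smallest SD between 2 arrays 0.22), and no column was left unused. Symbols came from the platform annotation: 21789 probe sets had 1 symbol, 1621 several and 12146 none, and the brightest of each gene's single-symbol probe sets left 19938 genes.

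Group means of all 8 groups were fitted with limma 3.58.1 in R 4.3.3 (eBayes with trend, 8 residual and 5.4 prior degrees of freedom). Each PBS pool, a single array, was given the spread of the CS lungs. The 12 contrasts were two-sided, with Benjamini-Hochberg adjustment over 19938 genes and a threshold of 0.05. The number of arrays limits precision: the median standard error was 0.14 for a single response and 0.098 for a mean response. At day 2, deviations over all genes of same-numbered CS lungs of both genotypes went together (r = 0.426, 0.2 and 0.345). Differently numbered day 2 lungs gave r of -0.398 to 0.097, and same-numbered day 60 lungs gave 0.0914, 0.00965 and 0.0552. The labels name no pair or batch, so whether the numbers pair the lungs is not known. Named genes were the 9 members, up to 4 genes per pathway list with the smallest p at each day, the 5 genes most like Il6 or Socs3, predicted genes and small RNAs left out, and at most 3 markers per list. The members and lists were chosen with earlier results of these data known.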

Additional observations from a re-analysis of the deposited data

Results flagged for a closer look

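The silica response of Il6 differed between the days: day 60 minus day 2 was -2.32 log2 units (limma, adjusted p = 0.00583), with the day 60 lungs also carrying KRasLA1. With high Eif2s3y as a term it was -1.83 (limma, adjusted p = 0.134).

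Il11 lay on opposite sides of the PBS pool in the 2 BLT1+/+ groups, though neither response passed the threshold (limma, adjusted p = 0.931 at day 60 and 0.749 at day 2): all 3 BLT1+/+KRasLA1 lungs lay below their PBS pool at day 60, by -0.33 to -0.03 and by -0.14 on average (-0.18 without replicate 2), and all 3 BLT1+/+ lungs lay above theirs at day 2, by 0.10 to 0.28 and by 0.20 on average. The difference of -0.34 within this genotype was not tested.

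The Socs3 probe set left out of the gene's values carried a signal of its own, a day 2 silica response of 0.53 log2 units averaged over the BLT1 genotypes.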

How the results depend on the processing

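Over 32 alternative settings, 941 of the values for single genes and lists were labelled as kept. Of the rest, 34 were weaker, 20 stronger, 10 reversed and 5 moved. Of the counts and correlations, 182 were labelled as kept, 21 moved and 2 reversed. Kept means the same direction and side of the threshold. A count close to the main one also passed as kept, such as 5 against 6, and correlations without the 2 farthest lungs were judged by sign alone. For the mean responses, the number of the 9 genes called was lowest when a PBS pool was left out. That fit held only the day's other arrays in an additive form and called far fewer of all genes too. The day 60 response of Il6 was 1.45 without the BLT1-/-KRasLA1 pool and 1.36 without the BLT1+/+KRasLA1 pool, against 1.41. The day 2 response of Osm was 1.37 and 0.41 without the BLT1-/- and BLT1+/+ pools, against 0.89. At day 60, the mean response called 3 genes, but 0 when the BLT1-/-KRasLA1 pool was left out and 1 when the BLT1+/+KRasLA1 pool was, in an additive fit of that day. At day 2, it called 6, but 3 when the BLT1-/- pool was left out and 2 when the BLT1+/+ pool was. Leaving out single CS lungs gave 5 to 6 at day 2 and 3 at day 60. With high Eif2s3y as a term, added after the data were seen, the count was 1 at day 60, 0 in BLT1-/-KRasLA1 lungs and 0 for the difference between the days. Over all genes that term left 318, 31 and 132 called in the same order, against 802, 234 and 469.

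In BLT1-/-KRasLA1 lungs the count of 1 became 0 without a mean-variance trend, 3 with array weights, 0 with median centring, 2 with both pools averaged, 0 with the other genotype's pool and 0 to 2 without single lungs. Over all genes, 234 became 172, 876, 127, 514 and 143 in those settings, and 69 to 432 without single lungs. In BLT1+/+KRasLA1 lungs the count of 0 became 2 with array weights, 3 with both pools and 2 with the other pool. Over all genes, 152 became 676, 619 and 293 in the same order. In BLT1-/- lungs at day 2 the count of 3 became 5 with both pools and 5 with the other pool. Over all genes, 1315 became 2642 and 1388. In BLT1+/+ lungs at day 2 the count of 4 became 2 with only that day's 8 arrays, and 232 of all genes became 93. In that setting Socs3 in BLT1-/- lungs was not called (adjusted p = 0.0539). The cause was not tested.

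The replicate number as a block changed no call of the 9 genes other than Lif in BLT1-/- lungs at day 2 (0.56, adjusted p = 0.0474). PBS pools carry no number, so its errors for silica responses are too small. Over all genes it called 3299 genes at day 2 against 2473 without it, in a range of 96 to 3299 over all settings; at day 60 the range was 58 to 1729 around 802.

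Values near 0 turned sign. The day 60 response of Il6st was -0.0449 with high Eif2s3y as a term, -0.012 with array weights, -0.012 with quantile normalisation and between -0.0126 and 0.0316 without single CS lungs, with -0.00843 and -0.00511 among them. That of Il11 was -0.0992 to 0.00427 without single CS lungs 0.0634 with that term and 0.0529 without the BLT1+/+KRasLA1 pool. The day 2 response of Il6ra was 0.014 without the BLT1-/- pool. The correlation of Lif with Socs3 was 0.028 without the 2 farthest lungs, and that of Osm was -0.068 in day 60 lungs alone.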
